A study of Xenopus laevis with 46 samples.

Results

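The step from 8 to 9 hours post fertilisation (hpf) in the vegetal pole (VP) of Xenopus laevis blastulae is described here, using the 10 of 46 libraries made from VP at these times. The libraries were picked by their labels alone, 5 at 9 hpf and 5 at 8 hpf. Wildtype embryos were injected at the 1-cell stage with 5-ethynyl uridine (EU), a uridine analog that enters RNA as it is made, and both poles were cut out from 5 to 9 hpf. RNA carrying EU was coupled to biotin by a click reaction, pulled down on streptavidin and sequenced after removal of ribosomal RNA. VP at 9 hpf was compared with VP at 8 hpf, and this change with the one in the animal pole (AP) between the same times. In both groups replicates 1 to 3 are 3 clutches of a first experiment, and replicates 4 and 5 are technical replicates of 1 clutch from a second experiment (clutch 4), which were averaged. So each group holds 4 clutches, and values below are given in the order of clutches 1, 2, 3 and 4. All groups shared the wildtype genotype, the EU injection (10 nl of 50 mM, 0.5 mM final) and a temperature of 22 °C. Libraries from embryos without EU were not analysed here.

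The blastula of this frog starts out with little transcription and runs on RNA stored in the egg until its own genome is switched on, at the midblastula transition. At the vegetal pole the stored T-box factor VegT and maternal Wnt signalling then turn on the Nodal ligands, the Mix and Bix homeobox genes and the Sox17 and GATA factors, which specify endoderm and induce mesoderm in the cells above. The species is allotetraploid, so most genes exist as an L and an S copy, and these homeologs were kept apart.

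No gene passed the threshold when the 4 clutches at 9 hpf were set against the 4 at 8 hpf. The direction was nevertheless shared by many early zygotic genes. Endoderm, mesoderm and organizer genes had summed levels that were higher in all 4 clutches at 9 hpf than in any at 8 hpf, with ratios of means of 4.83, 4.61 and 4.67, while germ plasm and egg genes overlapped between the times. In the first experiment taken alone, 21 genes were called higher, among them sp5l.S, fzd7.S, not.S and eef1a1.S. Each of these 21 was also higher in the clutch of the second experiment, which the call had not used.

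The values are read counts that the authors had normalized, so the depth in reads is unknown. Library totals of these values spanned 2175407 to 3273514 at 9 hpf and 1783721 to 2261700 at 8 hpf. The number of genes above 0 spanned 9245 to 18109 at 9 hpf and 4137 to 21137 at 8 hpf. The library at 4137 was VP 8 hpf replicate 2, which correlated across genes with the other 8 hpf libraries at a Pearson r of 0.325 to 0.370 (log2 scale). The others correlated at 0.517 to 0.626 between clutches, and at 0.837 between the technical replicates. At 9 hpf these values were 0.471 to 0.516 and 0.558. VP 8 hpf replicate 2 listed 12 members of the ribosomal protein list above 0, against 82 to 133 in the other 8 hpf clutches. A 0 in it says only that a gene is listed at 0. Clutches averaged 13560 ± 3587 genes above 0 at 9 hpf and 13660 ± 7207 at 8 hpf (SD, n = 4 each), a difference of -96.1 genes (exact two-sided permutation test, p = 0.971, where the smallest p possible is 0.0286). No 2 libraries were identical.

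The labelled region was checked against its markers. The 12 copies of sox17a, sox17b.1, mixer, gata4, gata5 and gata6, which mark endoderm, summed to 8596 to 38199 in VP at 9 hpf, against 1129 to 7210 in VP at 8 hpf, and to 593 to 2429 in AP at 9 hpf, against 348 to 1941 in AP at 8 hpf. All of them were above 0 in some VP clutch at 9 hpf, and at 8 hpf gata5.S alone was at 0 in all. The 5 copies of vegt, grip2, pgat and hwa, whose RNA is stored at the vegetal pole, summed to 6432 to 12812 in VP at 9 hpf, against 5243 to 8020 in VP at 8 hpf, and to 108 to 996 in AP at 9 hpf, against 253 to 649 in AP at 8 hpf. The 16 copies of ectoderm markers (grhl1, grhl3, foxi1, foxi4.2, krt70, cdh1, tfap2a and dlx3) were present in VP too. They summed to 3541 to 7614 in VP at 9 hpf, against 0 to 2924 in VP at 8 hpf, and to 5353 to 20808 in AP at 9 hpf, against 1294 to 8375 in AP at 8 hpf. In VP krt70.L, cdh1.L, dlx3.L and dlx3.S were at 0 in all 4 clutches at both times. In such bulk samples fewer cells of a type and less RNA per cell cannot be told apart, and the part of ectoderm cells in the values below was not tested.

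For the main comparison a linear model (limma, log2(value + 1), experiment as a covariate) was fitted to VP and AP at both times, and 19394 genes were tested. Neither direction held a gene with a Benjamini-Hochberg adjusted p under 0.05, and the smallest adjusted p was 0.114. At an unadjusted p under 0.05, limma placed 797 genes (4.11% of those tested) higher and 290 (1.5%) lower at 9 hpf. In 343 genes (1.77%) all 4 clutches at 9 hpf lay above all 4 at 8 hpf, and in 84 (0.433%) all lay below. Without VP 8 hpf replicate 2 limma called 1 gene higher (0.00516%), LOC108714958, and 0 lower, with 413 higher (2.13%) and 622 lower (3.21%) at an unadjusted p under 0.05. The genes not overlapping then numbered 400 higher (2.06%) and 605 lower (3.12%). A gene at 0 in that library cannot count as lower without overlap while the library is included, so the counts of 343 and 84 are not alike in reach. Also, 4 clutches separate from 3 more readily than from 4. Limma array weights gave that library the lowest weight of the 16 clutch values (0.11) and clutch 4 of VP at 8 hpf the highest (10.6). With these weights 219 genes (1.13%) were called higher and 28 (0.144%) lower, so the 8 hpf level then rested mostly on clutch 4. The median log2 fold change over all genes was 0.25 with VP 8 hpf replicate 2 and -0.35 without it, so list medians are given beside these values.

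The gene of smallest p was sp5l.S, a zinc finger factor of the Sp family that is known as a Wnt target. Its value was 972, 1070, 1457 and 1181 at 9 hpf, against 243, 0, 0 and 254 at 8 hpf. The lowest clutch at 9 hpf thus stood well above the highest at 8 hpf. The log2 fold change was 6.2 ± 1.3 (SE, n = 4 a group) with a limma adjusted p of 0.114. Without VP 8 hpf replicate 2 it was 4.98 ± 1.78, with a limma adjusted p of 0.883. The gene passed the threshold in 13 of 27 alternative settings. Its homeolog sp5l.L stood at 1111, 621, 1932 and 1410 at 9 hpf, against 231, 369, 89 and 372.5 at 8 hpf.

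Several other genes of the 15 with the smallest p among those not overlapping encode known proteins. The GATA factor gata5.S, a regulator of endoderm, had 42, 71, 96 and 185.5 at 9 hpf and was listed at 0 in all 4 clutches at 8 hpf. It was the sole gene of those tested (0.00516%) that was at 0 in all 8 hpf clutches and at 10 or more in all 9 hpf clutches. It was also at 0 in every VP clutch at 7 hpf.

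The S copy of the translation elongation factor eef1a1 had 1933, 1297, 761 and 1462 at 9 hpf, against 753, 218, 77 and 384 at 8 hpf. For eef1a1.S the log2 fold change was 2.29 ± 0.54 with an adjusted p of 0.139 (limma). Leaving out VP 8 hpf replicate 2 moved the fold change little, to 2.21, but its SE rose to 0.84 and the limma adjusted p to 0.883. The RNA-binding protein gene mex3b.L had 3366, 1519, 1312 and 1682 at 9 hpf, against 1034, 384, 225 and 502.5 at 8 hpf. Both genes were well above 0 in all 8 clutches. The adhesion molecule kirrel2.S had 229, 866, 501 and 1147 at 9 hpf, against 110, 0, 0 and 83 at 8 hpf. The ectoderm factor tfap2a.L had 172, 497, 205 and 603 at 9 hpf, against 136, 0, 2 and 170.5 at 8 hpf, so clutches 1 and 3 at 9 hpf lay only a little above the highest 8 hpf clutches. The high mobility group gene hmgb3.L had 2327, 2570, 1509 and 3866 at 9 hpf, against 684, 1410, 693 and 1383 at 8 hpf, with a log2 fold change of 1.31 ± 0.35.

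The remaining 8 of the 15 carry no descriptive name in the table (Xelaev18028555m, Xelaev18038135m, Xelaev18025766m, LOC108714958, LOC108718648, LOC108704304, LOC108715209 and MGC79993). Their log2 fold changes lay between 1.97 for Xelaev18028555m and 6.59 for MGC79993, with limma adjusted p between 0.139 and 0.337.

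Among the 36 names of the endoderm network, 33 passed the filter on low values. None was called, 16 had an unadjusted limma p under 0.05 and a higher level at 9 hpf (4.11% over all genes), and 15 had no overlap between the times (1.77% over all genes). Their median log2 fold change was 2.87, against 0.25 over all genes tested, and 2.44 against -0.35 without VP 8 hpf replicate 2. In the second experiment's clutch alone, all 33 were higher at 9 hpf, with a median of 2.87 against 0.14 over all genes. The summed level of the list was 72096, 30688, 52059 and 118998 at 9 hpf, against 24005, 6606, 4611 and 21505 at 8 hpf, a ratio of means of 4.83, and of 4.1 without VP 8 hpf replicate 2. All 9 hpf sums lay above all 8 hpf sums, with clutch 2 at 9 hpf and clutch 1 at 8 hpf the nearest to each other.

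Mixer, a Mix family homeobox protein that acts early in endoderm, is encoded by mixer.L and mixer.S. The L copy had 8019, 2938, 4144 and 8154 at 9 hpf, against 2015, 619, 281 and 1155 at 8 hpf, a log2 fold change of 2.73 ± 1.08. The S copy had 4257, 1167, 2562 and 6386 at 9 hpf, against 921, 0, 344 and 617.5 at 8 hpf. At 7 hpf mixer.L was near 0, with 0, 12, 65 and 0. The related mix1.L had 6200, 3143, 3800 and 11306 at 9 hpf, against 2546, 1059, 537 and 2243 at 8 hpf. Its homeolog mix1.S did not overlap between the times either. The most abundant member was bix1.2.L, a homeobox gene downstream of VegT, with 5407, 2096, 5415 and 15607 at 9 hpf, against 2064, 826, 508 and 3599 at 8 hpf. Clutch 2 at 9 hpf lay below clutch 4 at 8 hpf, and its clutch of the second experiment already held 2221 at 7 hpf, against 127 to 136 in the other 7 hpf clutches. The libraries averaged for that 7 hpf clutch listed only 7306 and 4364 genes above 0, so its values are less certain.

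The Sox17 factors are HMG box proteins that commit cells to endoderm. The copy sox17a.L had 2208, 1159, 2080 and 3761 at 9 hpf, against 900, 428, 211 and 574 at 8 hpf. Its S copy had 1444, 828, 1055 and 3103 at 9 hpf, against 551, 82, 233 and 523 at 8 hpf. Neither copy overlapped between the times. By contrast sox17b.1.L and sox17b.1.S overlapped, since clutch 2 at 9 hpf (1221 and 920) lay below clutch 1 at 8 hpf (1502 and 1127). Of the other GATA genes, gata4.S and gata6.S did not overlap. The copy gata4.S had 534, 109, 202 and 1434 at 9 hpf, against 79, 0, 1 and 27.5 at 8 hpf, and gata6.S had 592, 111, 376 and 1372, against 77, 0, 0 and 24.5. The L copies of gata4, gata5 and gata6 each had a 9 hpf clutch at 0. At 8 hpf gata4.S and gata6.S were thus at or near 0 in clutches 2 and 3, where mixer.L, mix1.L and sox17a.L held 211 to 1059.

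**Figure D1:**
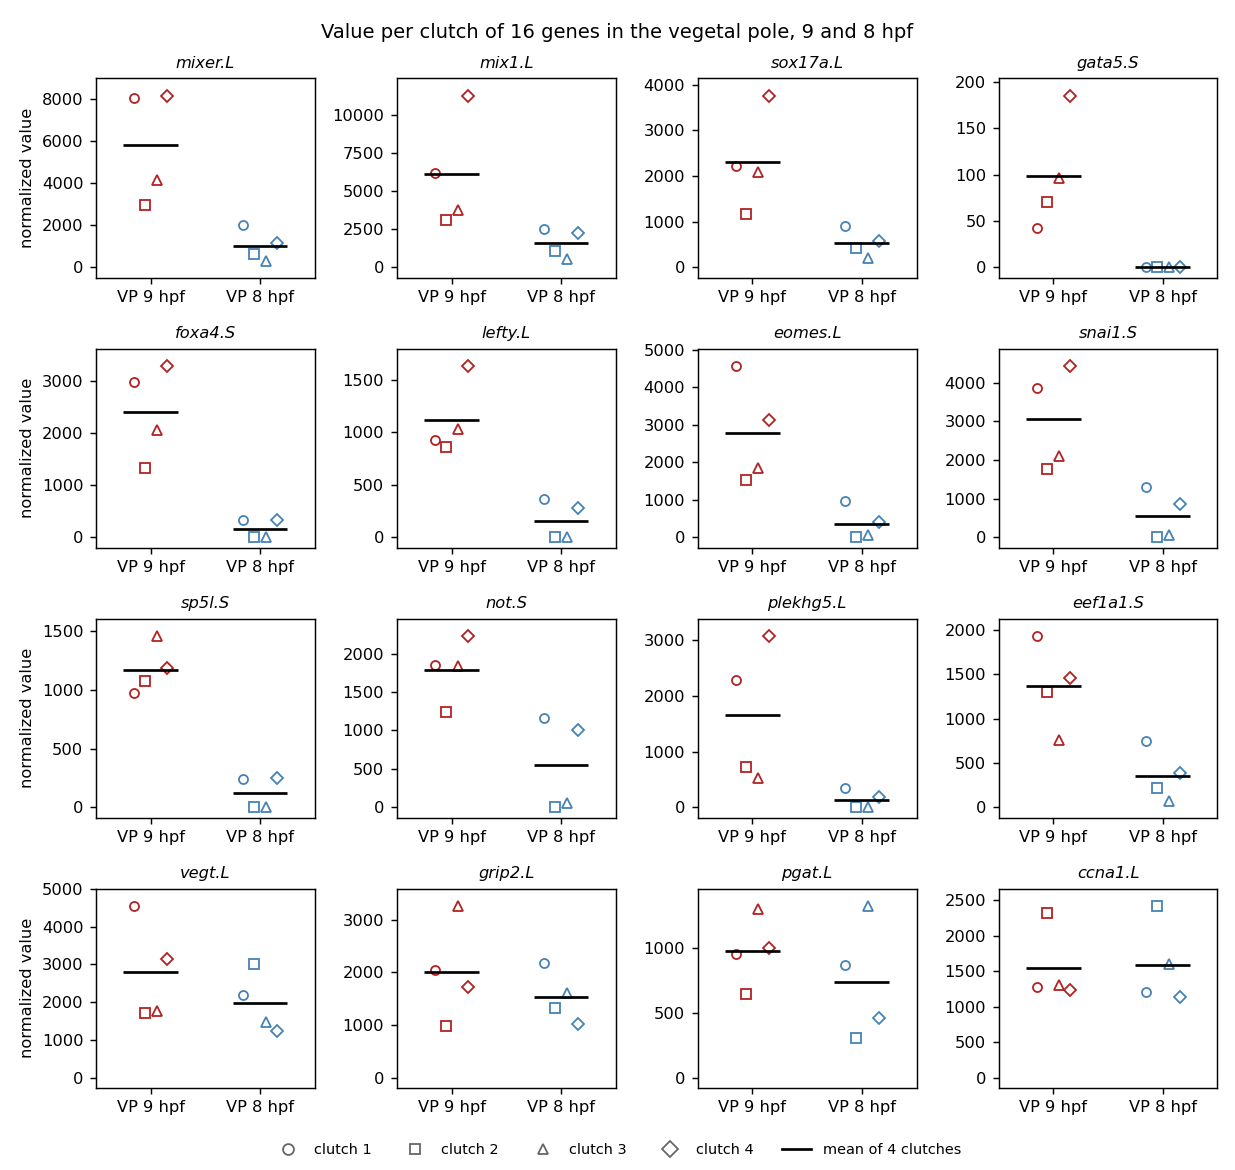
Normalized value (vertical axes, linear, own scale per panel) of 16 genes in VP at 9 hpf (red, left) and 8 hpf (blue, right); symbols are the 4 clutches and bars their means. In the first 12 panels every 9 hpf clutch lies above every 8 hpf clutch, and in the last 4 (vegt.L, grip2.L, pgat.L and ccna1.L) the times overlap.

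The Nodal pathway list had 44 of 50 members tested. Of these, 13 had an unadjusted p under 0.05 with a higher level at 9 hpf and 6 did not overlap (4.11% and 1.77% over all genes). The median log2 fold change was 1.99 against 0.25 over all genes, and 1.03 against -0.35 without VP 8 hpf replicate 2. Among the ligands nodal1.L had 629, 401, 970 and 1125 at 9 hpf, against 212, 0, 65 and 118 at 8 hpf. The earlier acting ligand nodal6.L overlapped, with 558, 318, 734 and 848 at 9 hpf, against 670, 0, 10 and 201.5 at 8 hpf. Likewise nodal5.2.L overlapped in clutch 2 and clutch 3 at 9 hpf (654 and 680, against 774 in clutch 1 at 8 hpf). The Nodal family member nodal3.1.L, a Wnt target of the dorsal side, had 881, 130, 422 and 1112 at 9 hpf, against 295, 0, 1 and 286.5 at 8 hpf.

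The feedback inhibitor lefty.L, a secreted Nodal antagonist and Nodal target, showed a wider gap. It had 926, 855, 1032 and 1632 at 9 hpf, against 364, 0, 0 and 275.5 at 8 hpf, a log2 fold change of 5.92 ± 1.83 (4.72 without VP 8 hpf replicate 2). In contrast the signal transducer smad4.1.S had 2246, 2433, 2114 and 2046 at 9 hpf, against 2836, 2798, 2068 and 1641 at 8 hpf, a log2 fold change of -0.05 ± 0.31. The DNA-binding partner foxh1.L also overlapped, at 610, 865, 1220 and 532.5, against 656, 358, 1177 and 652.5. The 6 members without overlap were the ligands gdf3.S and nodal1.L, the antagonists lefty.L and dand5.S, the Smad corepressor skil.S, and xenf.L.

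Of the organizer and head inducer list, 38 of 43 members were tested. The organizer is the dorsal signalling centre that secretes BMP and Wnt antagonists. A p under 0.05 with a higher level was found for 13 and no overlap for 7 (4.11% and 1.77% over all genes). The median log2 fold change was 3.28 against 0.25 over all genes (2.36 without VP 8 hpf replicate 2, and 2.67 in the second experiment, where 37 of 38 were higher). The summed level was 27981, 12696, 12894 and 36281 at 9 hpf, against 8580, 3165, 1113 and 6373 at 8 hpf.

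Among the transcription factors, foxa4.S had 2979, 1325, 2061 and 3295 at 9 hpf, against 340, 0, 0 and 325 at 8 hpf. The notochord homeobox gene not.S had 1855, 1240, 1840 and 2232 at 9 hpf, against 1168, 0, 56 and 1008 at 8 hpf, so clutch 2 at 9 hpf was just above clutch 1 at 8 hpf. Goosecoid, an organizer homeobox factor, overlapped in both copies, since gsc.L had 777, 209, 919 and 1382 at 9 hpf, against 210, 0, 95 and 139 at 8 hpf. The secreted Wnt antagonist frzb.S had 1017, 179, 220 and 889 at 9 hpf, against 113, 0, 1 and 32 at 8 hpf. Its BMP counterpart chrd.1.S overlapped in clutch 3, with 2112, 906, 506 and 2941 at 9 hpf, against 520, 579, 60 and 426 at 8 hpf. It was 1 of 5 members of this list that VP 8 hpf replicate 2 listed above 0.

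The immediate targets of maternal Wnt signalling formed a list of 9 genes tested. Of these, 4 had an unadjusted limma p under 0.05 with a higher level and 0 were free of overlap (4.11% and 1.77% over all genes). The median log2 fold change was 2.66 against 0.25 over all genes, and 1.69 against -0.35 without VP 8 hpf replicate 2. The homeobox gene sia1.L, which acts upstream of gsc, had 626, 491, 0 and 1619 at 9 hpf, against 656, 0, 91 and 626.5 at 8 hpf. Its log2 fold change of 0.93 ± 1.95 became -0.97 without VP 8 hpf replicate 2. In that list all 9 were higher in the second experiment's clutch, with a median of 1.45.

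For mesoderm, 32 of 46 members were tested, 13 had a p under 0.05 with a higher level and 7 did not overlap (4.11% and 1.77% over all genes). Their median log2 fold change was 2.60 against 0.25 over all genes (2.31 without VP 8 hpf replicate 2), and 31 of 32 were higher in the second experiment. Eomes, a T-box factor of early mesendoderm, had 4570, 1519, 1850 and 3127 for eomes.L at 9 hpf, against 980, 0, 65 and 411 at 8 hpf. Its S copy overlapped only through VP 8 hpf replicate 2, where eomes.S stood at 1994, above the 1454 of clutch 3 at 9 hpf. The Snail repressor snai1.S had 3871, 1769, 2106 and 4435 at 9 hpf, against 1298, 0, 63 and 849 at 8 hpf.

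The pan-mesodermal T-box gene tbxt was lower than eomes and snai1 in all VP clutches at 9 hpf. The S copy tbxt.S had 257, 202, 110 and 698.5 at 9 hpf, against 127, 0, 0 and 104.5 at 8 hpf, and overlapped in 1 clutch. Its log2 fold change was 4.55 ± 1.94 (3.45 without VP 8 hpf replicate 2). The L copy tbxt.L had 88, 130, 0 and 21.5 at 9 hpf, against 0, 0, 0 and 6 at 8 hpf. The ventral and lateral Wnt ligand wnt8a.S had 213, 531, 1023 and 1368 at 9 hpf, against 148, 10, 0 and 210.5 at 8 hpf. It did not overlap, but clutch 1 at 9 hpf was only just above clutch 4 at 8 hpf. Its homeolog wnt8a.L overlapped, with 564, 414, 175 and 3139.5 at 9 hpf, against 151, 0, 0 and 323 at 8 hpf. The apelin receptor aplnr.L, which works in mesendoderm migration, had 708, 57, 145 and 538.5 at 9 hpf, against 49, 0, 4 and 35 at 8 hpf. Muscle and notochord genes of later mesoderm had 3 of 17 members tested, of which 1 did not overlap (1.77% over all genes). This was the creatine kinase gene ckm.L, with 126, 231, 167 and 217 at 9 hpf, against 77, 0, 1 and 54.5 at 8 hpf. The others, myod1.L and myod1.S, overlapped and were at 0 in clutches 2 and 3 at both times. Their log2 fold changes of 0.52 and 0.46 turned to -0.22 and -0.07 without VP 8 hpf replicate 2. Blood and endothelium genes had 8 of 18 tested and summed to 258, 71, 0 and 322.5 at 9 hpf, against 97, 0, 0 and 140.5 at 8 hpf.

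The BMP pathway list had 44 of 51 members tested, of which 14 had a p under 0.05 with a higher level, 9 lay higher without overlap and 1 lower (4.11%, 1.77% and 0.433% over all genes). Its median log2 fold change was 2.70 against 0.25 over all genes (1.64 without VP 8 hpf replicate 2). The Ventx homeobox repressors are BMP targets that also hold cells uncommitted. Among them ventx2.2.L had 1641, 1811, 1461 and 2994 at 9 hpf, against 1081, 380, 71 and 1118 at 8 hpf. Its S copy ventx2.2.S had 3400, 2627, 3180 and 6968 at 9 hpf, against 1721, 0, 559 and 2388 at 8 hpf, a narrow gap between clutch 2 at 9 hpf and clutch 4 at 8 hpf. The gene id3.S, whose protein blocks basic helix-loop-helix factors, had 935, 397, 1070 and 2076 at 9 hpf, against 172, 0, 4 and 379 at 8 hpf. The BMP inhibitor smad6.L was the 1 member lower without overlap, with 60, 0, 94 and 130 at 9 hpf, against 194, 645, 279 and 144 at 8 hpf. VP 8 hpf replicate 2 held its highest value.

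Of the Wnt pathway list 42 of 50 members were tested, 11 had a p under 0.05 with a higher level and 5 did not overlap (4.11% and 1.77% over all genes). Their median log2 fold change was 1.5 against 0.25 over all genes (0.59 without VP 8 hpf replicate 2), and 28 of 42 were higher in the second experiment, against 10561 of 19394 over all genes. The receptor gene fzd7.S had 2763, 1028, 1378 and 1930 at 9 hpf, against 411, 0, 0 and 228.5 at 8 hpf. Its log2 fold change was 6.56 ± 2.03. The transducer ctnnb1.L, encoding beta-catenin, overlapped, with 1164, 897, 1422 and 1474 at 9 hpf, against 815, 1624, 1036 and 1103 at 8 hpf.

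The FGF and ERK response list had 41 of 48 members tested, with 10 at a p under 0.05 and higher and 8 without overlap (4.11% and 1.77% over all genes). Its median log2 fold change of 1.32, beside 0.25 over all genes, moved to 0.26 without VP 8 hpf replicate 2, against 1.70 in the second experiment. The immediate early factor egr1.L had 347, 161, 613 and 610 at 9 hpf, against 100, 0, 0 and 81.5 at 8 hpf. The ERK phosphatase dusp6.L had 271, 96, 99 and 393 at 9 hpf, against 51, 0, 1 and 72.5 at 8 hpf, and a second phosphatase of the family, dusp5.L, had 996, 677, 725 and 1217, against 460, 96, 110 and 223.5. The ligand fgf8.L had 739, 512, 457 and 1808 at 9 hpf, against 369, 68, 158 and 435 at 8 hpf.

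Genes of gastrulation movement and adhesion had 53 of 62 members tested, with 18 at a p under 0.05 and higher, 10 without overlap (4.11% and 1.77% over all genes). Their median log2 fold change was 2.27 against 0.25 over all genes (0.88 without VP 8 hpf replicate 2, and 2.08 in the second experiment). The guanine nucleotide exchange factor plekhg5.L, which in Xenopus drives apical constriction of bottle cells, had 2271, 719, 532 and 3071 at 9 hpf, against 355, 0, 0 and 183.5 at 8 hpf. The adhesion regulator flrt3.L had 4236, 944, 1042 and 4160 at 9 hpf, against 786, 0, 88 and 307.5 at 8 hpf. The hyaluronan synthase has2.L had 2702, 882, 1272 and 2631 at 9 hpf, against 700, 0, 170 and 377 at 8 hpf. In these 3 genes clutches 2 and 3 were lower than clutches 1 and 4 at each time. Equal numbers at the 2 times need not mark the same clutch, and clutch 2 at 8 hpf is the library with few genes above 0. The chemokine receptor cxcr4.L, a guide of mesendoderm migration, had 1096, 919, 553 and 1429 at 9 hpf, against 307, 475, 30 and 174 at 8 hpf. The fibronectin gene fn1.S, encoding the matrix on which mesoderm migrates, overlapped, with a log2 fold change of 0.61 ± 0.60.

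**Figure D2:**
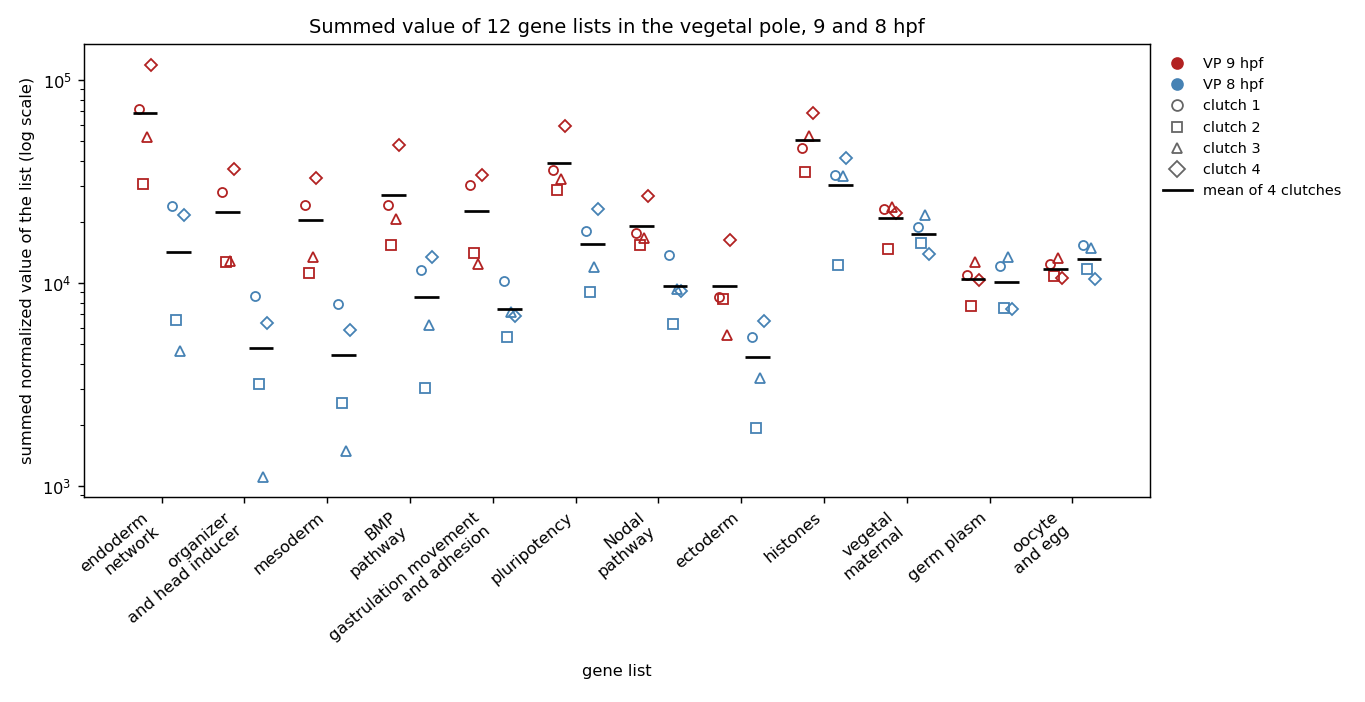
Summed normalized value (vertical axis, log scale) of 12 gene lists in VP at 9 hpf (red, left) and 8 hpf (blue, right); symbols are the 4 clutches and bars their means. The endoderm sums span 30688 to 118998 at 9 hpf, above the 4611 to 24005 at 8 hpf, and the germ plasm sums overlap, at 7695 to 12671 and 7418 to 13445.

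The pluripotency list had 35 of 37 members tested, with 16 at a p under 0.05 and higher, 9 without overlap (4.11% and 1.77% over all genes). Its median log2 fold change was 2.15 against 0.25 over all genes (1.60 without VP 8 hpf replicate 2). Its POU factors, the counterparts of mammalian Oct4, gave unlike values. The zygotic pou5f3.2.L had 3000, 3481, 3612 and 8491 at 9 hpf, against 1646, 383, 604 and 2975 at 8 hpf, and pou5f3.1.L had 789, 205, 376 and 996, against 117, 0, 0 and 81.5. The maternally supplied pou5f3.3.L had 956, 381, 1222 and 442 at 9 hpf, against 735, 494, 718 and 633 at 8 hpf, a log2 fold change of 0.06 ± 0.68. The stem cell factor sox3.S, expressed in both poles, had 1520, 1782, 1443 and 2356 at 9 hpf, against 1033, 768, 1058 and 1746 at 8 hpf.

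Ectoderm genes had 36 of 46 members tested, 9 at a p under 0.05 and higher, and 3 without overlap (4.11% and 1.77% over all genes). Without VP 8 hpf replicate 2, 3 were higher and 2 lower without overlap (2.06% and 3.12% over all genes). The median log2 fold change was 2.03 against 0.25 over all genes, and 0.95 against -0.35 without that library. The forkhead gene foxi4.2.L had 624, 667, 1139 and 1527 at 9 hpf, against 222, 0, 132 and 821.5 at 8 hpf, while in AP it had 632, 2507, 2294 and 3021 at 9 hpf, against 151, 1092, 269 and 981.5 at 8 hpf. At 9 hpf the poles overlapped, with AP clutch 1 below VP clutches 2, 3 and 4. Neural plate genes had 32 of 38 members tested, 6 higher and 1 lower at a p under 0.05, 2 higher without overlap (4.11%, 1.5% and 1.77% over all genes) and a median of 0.95 (0.70 without VP 8 hpf replicate 2).

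Genes whose RNA is stored in the egg mostly overlapped between the times, as did most of all genes tested. RNA made before the injection holds no EU, and how much of these values is unlabelled or new RNA was not tested. Germ plasm genes, which mark the future germ cells, had 23 of 24 members tested, with 0 at an unadjusted limma p under 0.05 in either direction, 0 without overlap and 0 called under Benjamini-Hochberg adjustment. Over all genes 4.11% were higher and 1.5% lower at that p. Without overlap 1.77% were higher and 0.433% lower, so 0 of 23 lies near these shares. The median log2 fold change was 0.25 against 0.25 over all genes (-0.39 against -0.35 without VP 8 hpf replicate 2), and the summed level was 10970, 7695, 12671 and 10364 at 9 hpf, against 12143, 7549, 13445 and 7418 at 8 hpf. Among its genes grip2.L had 2052, 986, 3264 and 1712 at 9 hpf, against 2170, 1319, 1613 and 1014 at 8 hpf. Another, pgat.L, had 952, 644, 1297 and 997 at 9 hpf, against 865, 306, 1322 and 459.5 at 8 hpf.

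Other vegetally stored genes had 28 of 31 members tested, 2 at a p under 0.05 and higher, and 1 without overlap, shares of 7.14% and 3.57% beside 4.11% and 1.77% over all genes. The T-box gene vegt.L, the maternal determinant of endoderm, had 4554, 1722, 1759 and 3140 at 9 hpf, against 2195, 3020, 1460 and 1241 at 8 hpf, and the dorsal determinant hwa.L had 1243, 937, 2209 and 1311, against 1286, 2203, 1707 and 1500. Both overlapped widely. The S copy vegt.S had 4011, 2143, 1341 and 3318 at 9 hpf, against 1504, 843, 793 and 1029.5 at 8 hpf. It overlapped only through clutch 3 at 9 hpf, which lay below clutch 1 at 8 hpf. The log2 fold change of vegt.S was 1.3 ± 1.45, with a limma adjusted p of 0.946. It passed the threshold in 1 of 27 alternative settings, the limma fit to VP alone (adjusted p 5.3e-05). Oocyte and egg genes had 54 of 57 members tested, 0 higher and 2 lower at a p under 0.05, and 1 lower without overlap (1.5% and 0.433% over all genes lower). Their summed level was 12368, 10780, 13309 and 10588 at 9 hpf, against 15427, 11690, 14839 and 10478 at 8 hpf, and the median log2 fold change was -0.24 (-0.79 without VP 8 hpf replicate 2, and 0.04 in the second experiment). The member without overlap was lsm14b.S, with 321, 132, 183 and 303 at 9 hpf, against 424, 473, 397 and 419.5 at 8 hpf.

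The same lists were followed back to 5 hpf in VP, low to high in time. The summed endoderm level was 53, 193 and 2 at 5 hpf in 3 clutches. It was 151, 277, 328 and 527 at 6 hpf and 2357, 1447, 1349 and 7987 at 7 hpf, before the 8 and 9 hpf sums given above. Clutches 2 and 3 at 8 hpf, at 6606 and 4611, thus lay below the 7 hpf value of the second experiment. The libraries averaged for that value listed 7306 and 4364 genes above 0, against 11251 to 14486 in replicates 1 to 3 at 7 hpf. At 7 hpf the mesoderm sum was 783, 464, 795 and 455. It reached 7848, 2563, 1491 and 5840 by 8 hpf, and 24194, 11182, 13422 and 33058 by 9 hpf. For the oocyte and egg list the sum was 20169, 15675 and 21473 at 5 hpf, and 19461, 16044, 16303 and 11988 at 7 hpf. All 9 hpf sums of that list lay below its 3 sums at 5 hpf. Labels do not say whether equal replicate numbers at different times are the same clutch.

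**Figure D3:**
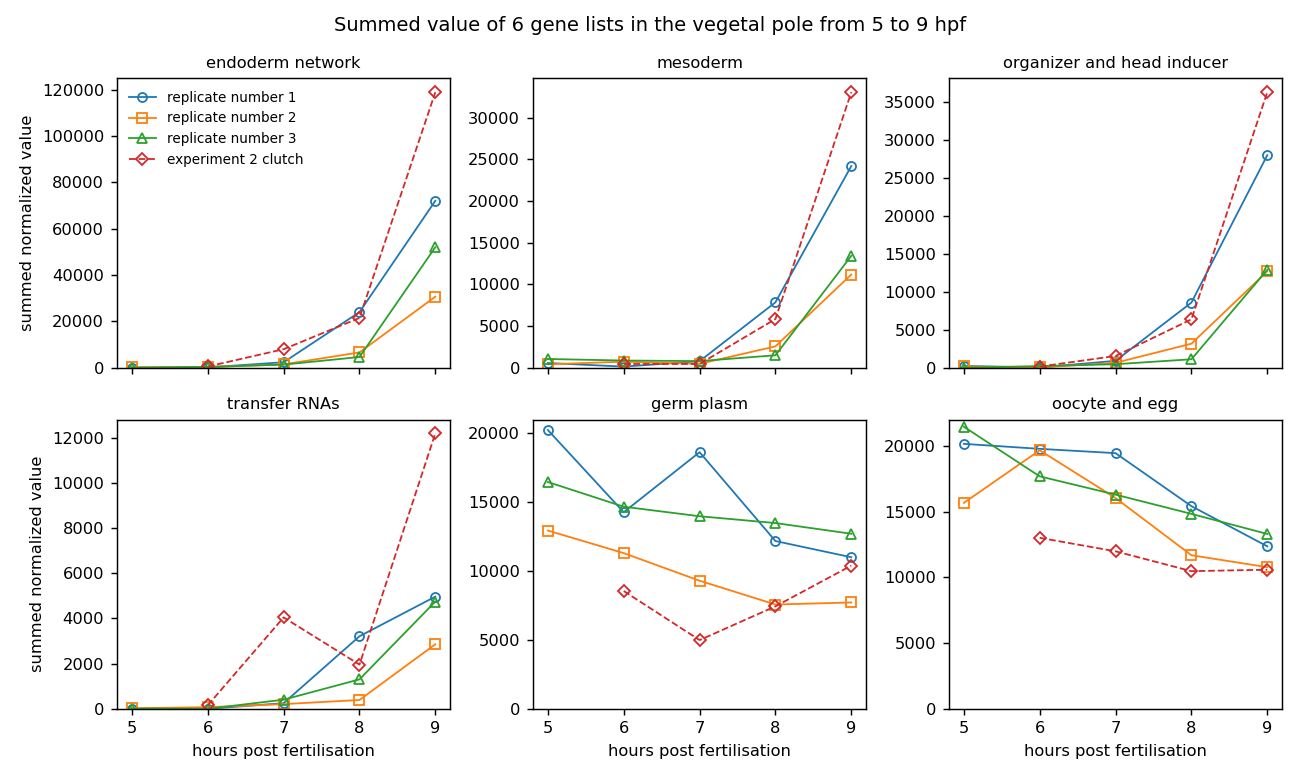
Summed normalized value (vertical axes, linear, own scale per panel) of 6 gene lists in VP against hours post fertilisation; lines join libraries of the same replicate number, and the dashed line is the clutch of experiment 2, which starts at 6 hpf. Endoderm, mesoderm and organizer sums are highest at 9 hpf in each line, and germ plasm sums at 9 hpf lie between 7695 and 12671.

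General gene classes gave smaller or mixed values. Histone genes summed to 46142, 35169, 52989 and 68576 at 9 hpf, against 34188, 12193, 33668 and 41112 at 8 hpf. Of 30 members 29 were tested, with 0 without overlap (1.77% higher and 0.433% lower over all genes). The cell cycle list had 57 of 58 members tested, a median log2 fold change of 0.41 (-0.10 without VP 8 hpf replicate 2, and 0.10 in the second experiment) and a summed level of 17142, 16492, 16389 and 16943 at 9 hpf, against 15545, 13657, 17010 and 13620 at 8 hpf. Its embryonic cyclin ccna1.L had 1280, 2324, 1305 and 1240 at 9 hpf, against 1212, 2420, 1605 and 1131 at 8 hpf. The phosphatase cdc25b.L, which activates cyclin-dependent kinases, had 443, 1033, 1227 and 2023 at 9 hpf, against 156, 0, 10 and 668.5 at 8 hpf.

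The limiting replication factors had 26 of 27 tested, with a median log2 fold change of 0.08 that turned to -0.52 without VP 8 hpf replicate 2. For p53 targets, 25 of 27 were tested, with a median of 1.34 that moved to 0.12 without that library. RNA polymerase II and initiation genes had 53 of 59 tested and a median of 0.28, which turned to -0.83 without VP 8 hpf replicate 2. Chromatin genes had 39 of 41 tested and a median of 0.17, which turned to -0.20 without that library and was -0.09 in the second experiment. Ribosomal protein genes had 132 of 138 tested and a median of -0.09 (-0.94 without VP 8 hpf replicate 2, and 0.33 in the second experiment). The median of all genes was 0.25, or -0.35 without that library.

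Small structural RNAs were also captured. Of the 50 transfer RNA names, 42 were tested, 10 had a p under 0.05 with a higher level and 3 did not overlap (trnac-gca, trnad-guc and trnai-aau), beside 4.11% and 1.77% over all genes. Their median log2 fold change was 2.29 against 0.25 over all genes (1.31 without VP 8 hpf replicate 2), and 40 of 42 were higher in the second experiment. The most abundant, trnar-ucg, had 494, 234, 150 and 2432 at 9 hpf, against 106, 0, 6 and 256 at 8 hpf, a log2 fold change of 4.44 ± 1.01 with a limma adjusted p of 0.114. The list sum overlapped, since clutch 2 at 9 hpf (2858) lay below clutch 1 at 8 hpf (3211). The name rnu2, a spliceosomal small nuclear RNA, had 932, 1123, 1458 and 1690 at 9 hpf, against 687, 0, 118 and 510 at 8 hpf. Transfer RNAs and histones are multigene families, and reads shared between near-identical copies may have been split by the authors' quantification.

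**Figure D4:**
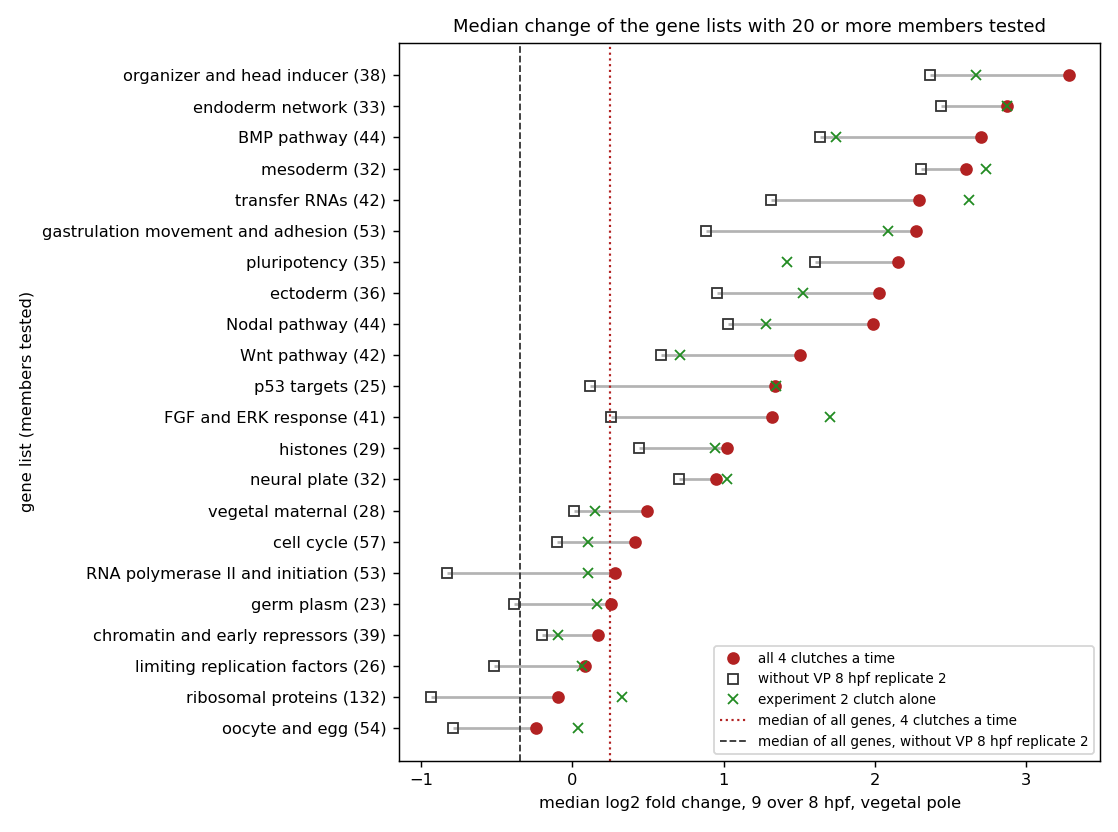
Median log2 fold change, 9 over 8 hpf in VP (horizontal axis), of each gene list with 20 or more members tested (vertical axis, number tested in parentheses); red points use all 4 clutches a time, open squares leave out VP 8 hpf replicate 2, crosses are the clutch of experiment 2, and vertical lines are the medians of all genes tested. The endoderm median is 2.87, 2.44 and 2.87 in these 3 readings, and the germ plasm median is 0.25, -0.39 and 0.17.

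Of the 84 genes that lay lower at 9 hpf without overlap, the 15 of smallest p were LOC108717095, syngr1.S, lyplal1.L, LOC108697842, pgm1.L, poc5.L, lins1.L, haus6.L, ubox5.L, cxadr.L, hpf1.L, stk10.S, znf407.L, mtmr9.L and med14.L, with limma adjusted p between 0.337 and 0.590. At least 10 in all 8 hpf clutches and 0 in all 9 hpf clutches was found for 3 of all genes tested (0.0155%), LOC108717095, syngr1.S and lyplal1.L. The synaptogyrin gene syngr1.S was listed at 0 in all clutches at 9 hpf, against 59, 385, 32 and 42.5 at 8 hpf. The Mediator subunit gene med14.L had 73, 82, 0 and 122.5 at 9 hpf, against 245, 712, 638 and 198.5 at 8 hpf, a log2 fold change of -3.71 ± 1.35 (-3.38 without VP 8 hpf replicate 2). In all 15 the highest value at 8 hpf was that of VP 8 hpf replicate 2. The mitotic kinase bub1.L, from the cell cycle list, was lower too, with 81, 2, 126 and 65 at 9 hpf, against 230, 638, 319 and 184 at 8 hpf.

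The experiments were then read apart, since the clutch of the second had not entered the fit to the first. In the first experiment alone limma called 21 of 17063 genes higher (0.123%) and 0 lower (Benjamini-Hochberg adjusted p under 0.05), with 817 higher and 222 lower at an unadjusted p under 0.05. All 21 (100%) were higher at 9 hpf in the second experiment, with a median log2 fold change of 1.60, where 53.2% of all genes tested were higher, with a median of 0.09. Without VP 8 hpf replicate 2, 9 of 17007 (0.0529%) were called higher and 0 lower (304 and 678 at an unadjusted p under 0.05), and all 9 were higher in the second experiment.

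Several of the 21 are developmental regulators. The receptor fzd7.S had the smallest adjusted p in the first experiment, 0.000116, and in the second it had 1930 at 9 hpf, against 228.5 at 8 hpf. The repressor e2f7.S, of the E2F cell cycle family, had 1010, 739, 271 and 745 at 9 hpf, against 276, 0, 6 and 190.5 at 8 hpf. The planar polarity gene prickle1.S had 3761, 1078, 481 and 2560 at 9 hpf, against 595, 0, 194 and 267 at 8 hpf. The smallest change in the second experiment was that of hmgb2.L, at 0.71 on the log2 scale, with 4762 at 9 hpf against 2907 at 8 hpf. Its values in the first were 2479, 2135 and 2182 at 9 hpf, against 1319, 283 and 1034 at 8 hpf.

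Genes without overlap in the first experiment were then looked up in the second. Of the 745 (4.37%) whose 3 clutches at 9 hpf all lay above the 3 at 8 hpf, 73% were higher in the second experiment, against 53.2% of all genes tested. Of the 315 (1.85%) that all lay below, 49.2% were lower there, against 45% of all genes tested. Leaving out VP 8 hpf replicate 2, 70.8% of 913 higher genes (5.35%) were higher in the second experiment, and 51.7% of 1934 lower genes (11.3%) were lower there. The shares of higher genes thus lay farther above the share over all genes than those of lower genes did.

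**Figure D5:**
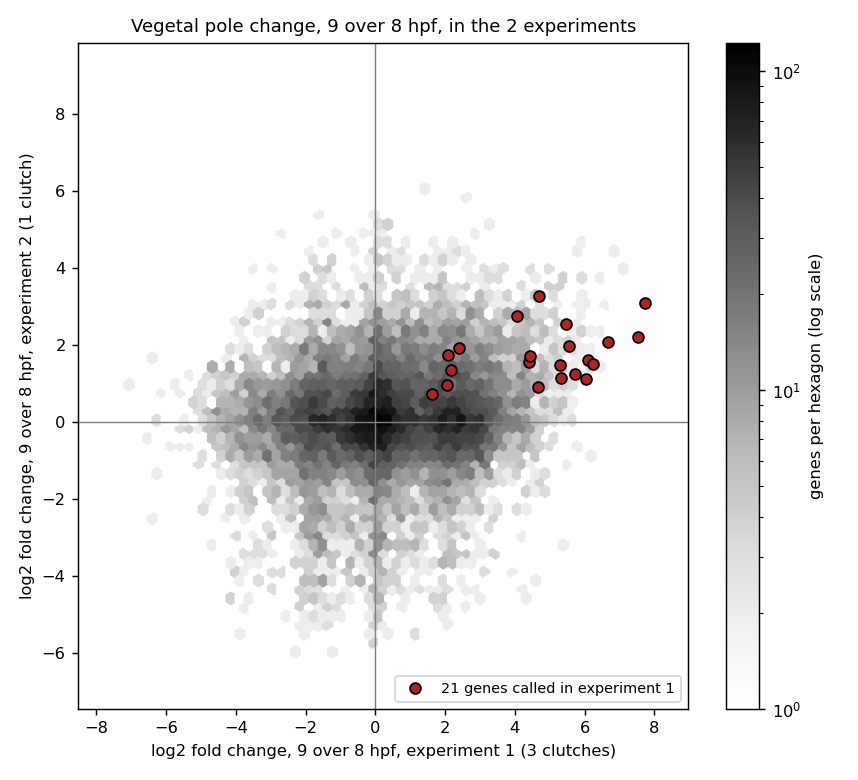
Log2 fold change, 9 over 8 hpf in VP, in experiment 1 (horizontal axis, 3 clutches a time) and in experiment 2 (vertical axis, 1 clutch a time); grey hexagons count the 17063 genes tested on a log scale and red points are the 21 genes called in experiment 1. All 21 lie above 0 in experiment 2, between 0.71 and 3.26.

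Homeologs gave a further reading of the same libraries. In 4771 pairs both copies were tested. A copy was higher without overlap in 173 pairs, and in 23 of them both copies were, beside 1.77% of all single genes tested. Of the 150 other copies, 109 had a positive log2 fold change (11014 of 19394 over all genes), with a median of 1.17 against 0.25 over all genes. These counts include VP 8 hpf replicate 2, whose zeros can raise both copies, and are not given without it. The pairs with both copies free of overlap included mixer, mix1, sox17a, foxa4, bix1.3, snai1, sp5l, flrt3, has2, id3, ventx2.2 and eef1a1. Near-identical copies can share reads, so their values are not fully independent.

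Last, the change in VP was set against that in AP in the same fit, using different libraries. No gene was called for the difference, and the smallest limma adjusted p was 0.9999. At an unadjusted limma p under 0.05, the signed change (9 minus 8 hpf) was higher in VP for 309 genes and higher in AP for 177. A gene that fell in VP but not in AP counts among the 177. The median difference over all genes was 0.31 on the log2 scale, and it turned to -0.36 without VP 8 hpf replicate 2. At an unadjusted limma p under 0.05, the signed change was then higher in VP for 160 genes and higher in AP for 333. The endoderm sum in AP was 1187, 5609, 2195 and 2070 at 9 hpf, against 603, 4533, 798 and 1472 at 8 hpf. All AP sums at 9 hpf lay under all VP sums at 9 hpf, while at 8 hpf the poles came close in their nearest clutches, AP clutch 2 (4533) and VP clutch 3 (4611). The pluripotency sum in AP was 18656, 73342, 50455 and 68361.5 at 9 hpf, against 8029, 36126, 12130 and 24443 at 8 hpf. For the BMP pathway the AP sum was 9964, 32939, 21744 and 33852, against 3743, 13941, 4945 and 11145.5. Both lists overlapped between the times in AP, but higher means at 9 hpf were not confined to VP. In single genes the difference between the poles was 3.85 for mix1.L and 5.46 for gata4.S, a gene that was listed at 0 in all 8 AP clutches. For mixer.L it was -1.33 (SE 1.525), with a change of 4.07 in AP against 2.73 in VP. The AP values of mixer.L were low, at 151, 225, 40 and 99.5 at 9 hpf, against 69, 0, 0 and 24.5 at 8 hpf. The change in AP thus rests on clutches at 0, and the mean level in VP was 5814 at 9 hpf, against 1017 at 8 hpf. For eef1a1.S, hmgb3.L and mex3b.L the differences were 0.24, 0.00 and 0.35, and their mean levels in AP were also higher at 9 hpf. In AP eef1a1.S had 1593, 5050, 2473 and 3240 at 9 hpf, against 505, 2190, 307 and 656 at 8 hpf. With 4 clutches a group, a difference between the poles that misses the threshold does not show that they changed alike.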

How the data were processed

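EU-labelled RNA from dissected VP and AP was sequenced in 46 libraries, per the labels. Salmon 0.12.0 and DESeq2 are the tools that the submitters' processing notes name. A version of DESeq2 and a genome build were not given in the sources used here. Values in the table the authors deposited are DESeq2-normalized, rounded reads (unit score) for 50489 entries, and those sharing a name were summed into 49233 genes. Whole reads could not be recovered, so the planned fallback for normalized values replaced a count test: limma 3.58.1 (R 4.3.3) on log2(value + 1), with trend and robust estimation, experiment as a covariate, VP and AP at 8 and 9 hpf, technical replicates averaged, and genes kept at 10 or more in at least 3 of 16 clutch values. Fold changes on this scale understate those of low genes and are large where a clutch is at 0. Benjamini-Hochberg adjusted p under 0.05 was the threshold. The script was run on simulated data, drawn per gene from a normal distribution on the log2 scale. That simulation held no experiment effect and did not model the many zeros of single libraries. It therefore does not show how the fit behaves on genes with clutches at 0.

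Named genes were the 15 a direction with the smallest p among those not overlapping (none was called), the 4 most abundant VP members of each list, and fixed markers. Others were named after their values were seen. The members and lists were chosen with earlier results of these data known. Lists taken by name prefix were narrowed by gene name, and the mitochondrially encoded list matched no name. Clutches are biological replicates, per the series text. Alternatives changed the libraries, covariates, pseudocount, filter, scaling, weights and homeolog handling. One more, experiment 1 without VP 8 hpf replicate 2, was chosen after seeing the data. No sequences or coordinates were used here.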

Additional observations from a re-analysis of the deposited data

Results flagged for a closer look

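Within groups of 4 clutches, 1 value stood far from the other 3 for 20 gene and group pairs and for 1 summed list. The test used (Dixon's) flags about 1 in 20 groups by chance, and many groups were examined. At 9 hpf the clutch of the second experiment was the highest for the muscle and notochord sum (721.5), Xelaev18028555m (1988.5), Xelaev18038135m (1034) and Xelaev18025766m (1230). For Xelaev18028555m that value averages technical replicates at 2954 and 1023, and the lower of them lay below clutches 1 to 3. For genes that were otherwise at 0 or near it at 9 hpf, single clutches held 36 for LOC108697842, 6 for pgm1.L, 38 for poc5.L, 1 for lins1.L, 31.5 for haus6.L, 9 for hpf1.L and 7 for mtmr9.L. At 8 hpf the second experiment's clutch stood apart for LOC108714958 (54) and Xelaev18025766m (115).

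VP 8 hpf replicate 2 was the value that stood apart at 8 hpf for 8 of the genes lower at 9 hpf. It held 945 for LOC108717095, 385 for syngr1.S, 514 for lyplal1.L, 510 for lins1.L, 1425 for haus6.L, 482 for ubox5.L, 387 for hpf1.L and 827 for stk10.S. All of these genes kept a lower level at 9 hpf without that library.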

How the results depend on the processing

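The count of genes called was 0 in the design as planned, and remained 0 with pseudocount 0.5, no filter, a filter of 10 in 8 of 16 values, median-ratio scaling and technical replicate 4 alone. It was 72 with only VP in the fit, 21 with all 10 groups of region and time, 24 without the experiment term, 59 and 94 with pseudocounts of 10 and 50, 41 with a filter of 10 in 3 of the 8 VP values, 24 with equal totals (which moved the median of all genes to 0.04, against 0.25), 247 with array weights, 3 with technical replicate 5 alone and 4 with homeologs summed. All these were higher at 9 hpf, except 28 of the 247. Array weights were 0.11 for VP 8 hpf replicate 2 and 10.6 for the averaged 8 hpf clutch. Leaving out replicates gave 0 to 67 calls, with 67 without the 8 hpf clutch of experiment 2, 45 without VP 8 hpf replicate 1, 1 without VP 8 hpf replicate 2, 24 without the 9 hpf clutch of experiment 2, and 28, 2, 13 and 21 without replicates 1, 2, 3 and 4 in every group. Experiment 1 without VP 8 hpf replicate 2 gave 9. For the VP and AP difference, 1 gene was called with all 10 groups and 6 with array weights, and 0 in the other settings, where leaving out replicates gave 0 to 0. Genes lower without overlap numbered 605 without VP 8 hpf replicate 2, against 84. A gene at 0 in that library cannot count as lower without overlap while the library is included. Also, 4 clutches separate from 3 more readily than from 4. How far each point accounts for the change was not tested.

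With a replicate block in place of the experiment term 0 genes were called (1307 at an unadjusted p under 0.05, against 1087). Deviations of same-numbered 9 and 8 hpf clutches from their group means correlated at 0.065, -0.006, 0.039 and 0.145, not all over 0.1, so the numbers were not taken to pair the samples. Of 155 named genes, 122 kept their sign in every setting tried and 60 were called in at least 1. The difference in genes above 0 spanned -2910 to 1019 without single replicates. Count tests with DESeq2 or TMM were not run, since the values are not raw counts. Depth in reads is unknown, so no counting error or detection floor could be given.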
